A study of Bos taurus with 23 samples.

Results

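ALDH5A1 (ENSBTAG00000021902), GSTM3 (ENSBTAG00000001842) and UGT8 (ENSBTAG00000004574) are 3 genes of metabolic enzymes among the 24616 genes counted in peripheral white blood cells (PWBC) of heifers. They were chosen by identifier from the genes that had been higher in the NB-pregnant heifers of station A, so their values in station A are given as a description without a test, and the heifers of station B are the ones in which they were tested. All 3 genes were found in the count tables of both stations and passed the filter of the study, more than 1 CPM (counts per 1000000 counted read pairs of a library) in 6 or more libraries of a station, which retained 12128 genes in station A and 10832 in station B. GSTM3 passed with exactly 6 libraries above 1 CPM in each station.

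The heifers were Angus by Simmental crossbreds whose estrous cycles had been synchronized with hormones before 1 insemination at a fixed time (artificial insemination, AI), and bulls were introduced later. Blood was drawn from the jugular vein at AI in all heifers, before any pregnancy existed, and the PWBC of each heifer gave 1 library, so each library is an independent animal. In station A, 6 of the heifers conceived at AI (called AI-pregnant) and 5 conceived afterwards with bulls (called NB-pregnant, for natural breeding). In station B, 6 were AI-pregnant and 6 had conceived neither at AI nor with bulls (called non-pregnant). Because each station paired AI-pregnant heifers with a different second outcome, the station and that outcome cannot be told apart. The PWBC are a mixture of leukocytes, and in such bulk samples fewer cells of a type and less RNA per cell cannot be told apart.

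ALDH5A1 encodes the mitochondrial succinic semialdehyde dehydrogenase, which completes the breakdown of the neurotransmitter GABA by turning succinic semialdehyde into succinate, an intermediate of the citric acid cycle. GSTM3 encodes a glutathione S-transferase of the mu class, a family that joins glutathione to electrophilic compounds and so takes part in detoxification and in defence against oxidative damage. UGT8 encodes the enzyme of the endoplasmic reticulum that transfers galactose to ceramide, the step that makes galactosylceramide, and it is best known from the cells that form myelin. The 3 enzymes act in different pathways.

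ALDH5A1 was also assayed by qPCR in the study, and the primer pair of that assay is the designed sequence that belongs to these genes. It is shown to identify the transcript, in lower case and 5′ to 3′, in the order in which it was listed. The primers are 19 and 21 bases long, with 57.9% and 52.4% G and C.
ALDH5A1 primer, listed as the first: ccccagcaaaagaaaggcg
ALDH5A1 primer, listed as the second: cttccgtgtgatcatggcact

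Totals of counted read pairs were 4826003 to 20434401 per library, so that 1 CPM stands for about 5 to 20 pairs. Libraries also differed in profile. In station B, 3 libraries (AI-pregnant heifer 3 and non-pregnant heifers 1 and 4) had 12166 to 12394 genes above 1 CPM, and the other 9 had 9970 to 10905. In station A all 11 libraries had 11482 to 12456 genes above 1 CPM, but 5 of them (AI-pregnant heifers 4 and 5 and NB-pregnant heifers 1, 4 and 5) had 24.1% to 29.4% of their counts in the 100 most abundant genes against 13.1% to 18.4% in the other 6. The first principal component of the retained genes took 75.7% of the variance in station A and 85.0% in station B. Of the marker genes of blood cell types, 2 could be read. ALAS2 (ENSBTAG00000013178), the heme synthesis enzyme of red cell precursors, had 14.7 to 142 CPM in station A and 1.42 to 44.3 CPM in station B. FCER1A (ENSBTAG00000012887), a receptor chain of basophils, had 3.11 to 30.9 CPM and 5.61 to 21.7 CPM. Both are genes that the study called by outcome in these same heifers, ALAS2 as higher in non-pregnant heifers and FCER1A as lower in NB-pregnant heifers. They are thus not markers chosen apart from the outcome. No other marker of a blood cell type was analysed here, and the part of these cells in the values of the enzymes was not tested.

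The 3 enzymes were transcribed at very different levels. On the FPKM of the study, which are scaled for gene length, ALDH5A1 had a mean of 10.8 FPKM over the 11 heifers of station A and 14.0 FPKM over the 12 heifers of station B. These means placed it at percentiles 41.7 and 43.4 of the genes retained in each station, and all 23 libraries exceeded 1 CPM. GSTM3 had means of 1.49 and 2.55 FPKM, at percentiles 8.63 and 11.8, and exceeded 1 CPM in 6 of 11 and 6 of 12 libraries. UGT8 was the lowest per length, with means of 0.404 FPKM in station A, at percentile 1.15, and 1.65 FPKM in station B, at percentile 7.33. It exceeded 1 CPM in 9 of 11 and 12 of 12 libraries. GSTM3 and UGT8 thus rested on few read pairs, 3 to 32 and 3 to 59 per library in station A.

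**Figure D1:**
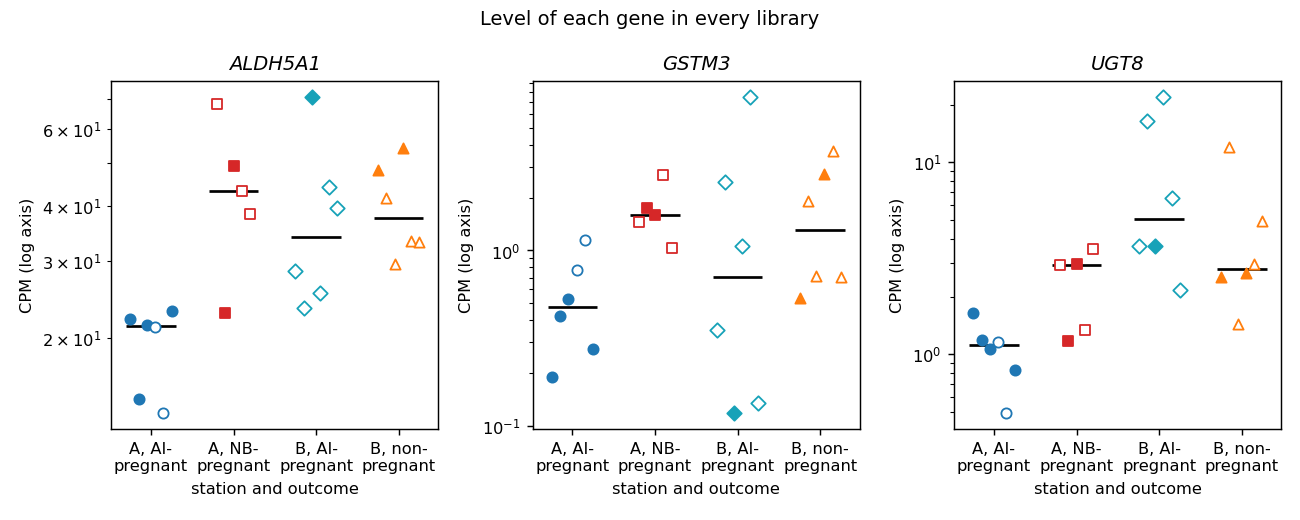
Level of ALDH5A1, GSTM3 and UGT8 in CPM (vertical axis, log scale) in each library, by station and outcome. Bars are medians, and filled symbols are libraries with the larger number of genes above 1 CPM in their station. The AI-pregnant heifers of station A lie lowest by median for all 3 genes, and those of station B reach the highest values for each.

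ALDH5A1 is described first because it is the most abundant of the 3. In station A its level was 22.0, 14.5, 21.4, 21.1, 13.4 and 23.0 CPM in AI-pregnant heifers 1 to 6, a mean of 19.3 ± 4.16 CPM (SD, n = 6). In NB-pregnant heifers 1 to 5 it was 68.2, 22.8, 49.2, 43.3 and 38.3 CPM, a mean of 44.4 ± 16.5 CPM (SD, n = 5). The AI-pregnant heifers formed a narrow band, and 4 of 5 NB-pregnant heifers lay above all of it, while NB-pregnant heifer 2 lay just below the highest AI-pregnant heifer. The log2 fold change of the edgeR quasi-likelihood fit, relative to AI-pregnant heifers, was 1.42 (standard error 0.32), a 2.68-fold higher level.

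In station B the succinic semialdehyde dehydrogenase gene gave another picture. Its level was 28.3, 23.4, 70.9, 25.3, 44.1 and 39.5 CPM in AI-pregnant heifers 1 to 6, with a mean of 38.6 ± 17.8 CPM (SD, n = 6). Non-pregnant heifers 1 to 6 had 48.3, 41.7, 29.4, 54.3, 33.2 and 33.0 CPM, with a mean of 40.0 ± 9.84 CPM (SD, n = 6). The range of the non-pregnant heifers lay inside that of the AI-pregnant heifers, whose upper end was set by AI-pregnant heifer 3, and without that heifer non-pregnant heifers 1 and 4 lay above all other AI-pregnant heifers. The log2 fold change was 0.08 (standard error 0.32, 95% interval -0.61 to 0.77), and the gene was not called (adjusted p of 0.922 in the quasi-likelihood test of edgeR). The interval corresponds to 0.657 to 1.70 times the level of AI-pregnant heifers. An exact permutation test of the CPM (two-sided) gave p = 0.887, where the smallest p that 6 heifers against 6 allow is 0.00216. Without AI-pregnant heifer 3 the log2 fold change was 0.36 and was not called either.

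GSTM3, the glutathione S-transferase, had few counts in every AI-pregnant heifer of station A. AI-pregnant heifers 1 to 6 had 0.190, 0.422, 0.530, 0.776, 1.15 and 0.275 CPM, from 3, 5, 5, 4, 7 and 4 read pairs, and a mean of 0.557 ± 0.355 CPM (SD, n = 6). NB-pregnant heifers 1 to 5 had 1.46, 1.76, 1.60, 2.68 and 1.04 CPM, from 8, 12, 32, 14 and 5 read pairs, and a mean of 1.71 ± 0.608 CPM (SD, n = 5). All NB-pregnant heifers exceeded 1 CPM and 1 AI-pregnant heifer did, and the groups met at AI-pregnant heifer 5, which lay above NB-pregnant heifer 5. The fitted log2 fold change was 1.84 (standard error 0.52), a 3.59-fold higher level in NB-pregnant heifers.

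Among the heifers of station B the same gene varied widely within both outcomes. AI-pregnant heifers 1 to 6 had 0.354, 2.47, 0.118, 1.06, 7.50 and 0.135 CPM, from 3, 23, 1, 7, 68 and 1 read pairs, with a mean of 1.94 ± 2.87 CPM (SD, n = 6). Non-pregnant heifers 1 to 6 had 0.538, 1.91, 0.717, 2.74, 3.71 and 0.705 CPM, from 7, 12, 4, 56, 34 and 5 read pairs, with a mean of 1.72 ± 1.30 CPM (SD, n = 6). AI-pregnant heifers held both the highest and the lowest level. The log2 fold change was -0.09 (standard error 0.88, 95% interval -2.0 to 1.83; adjusted p of 0.969 in the quasi-likelihood test of edgeR). The interval, 0.249 to 3.54 times the level of AI-pregnant heifers, holds changes of several fold in both directions, so a difference of that size was not detectable at this depth and spread. The exact permutation test (two-sided) gave p = 0.929. Without AI-pregnant heifer 5 the log2 fold change was 1.01 and was not called either.

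Counting intervals are given here for the highest and the lowest GSTM3 level among the AI-pregnant heifers of station B, which were picked as the extremes. AI-pregnant heifer 5 had 7.50 CPM with an exact 95% Poisson interval of 5.82 to 9.51 CPM, and AI-pregnant heifer 3 had 0.118 CPM with an interval of 0.00298 to 0.656 CPM. These intervals do not meet. Both heifers became pregnant to AI, but their libraries were of unlike profile, with 10828 genes above 1 CPM in heifer 5 and 12354 in heifer 3. In the 5 AI-pregnant heifers among the 9 libraries with fewer genes above 1 CPM, GSTM3 ran from 0.135 to 7.50 CPM, with a median of 1.06 CPM. The lowest of these was AI-pregnant heifer 6, with 10636 genes above 1 CPM and an interval of 0.00343 to 0.754 CPM. The part of the library profile in these levels was not tested. Such intervals hold counting error only. GSTM3 counts carry a further limit, since pairs that aligned to several places had been discarded. In the gene order of the RefSeq assembly ARS-UCD2.0, GSTM2, another mu class gene, follows GSTM3 with 2 genes between them, and pairs shared by near copies would be lost from the counts.

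UGT8, the ceramide galactosyltransferase, was near 1 CPM in the AI-pregnant heifers of station A. AI-pregnant heifers 1 to 6 had 1.65, 1.18, 1.06, 1.16, 0.491 and 0.824 CPM, from 26, 14, 10, 6, 3 and 12 read pairs, a mean of 1.06 ± 0.388 CPM (SD, n = 6). NB-pregnant heifers 1 to 5 had 2.92, 1.17, 2.94, 1.34 and 3.52 CPM, from 16, 8, 59, 7 and 17 read pairs, a mean of 2.38 ± 1.05 CPM (SD, n = 5). NB-pregnant heifers 1, 3 and 5 lay above every AI-pregnant heifer, and NB-pregnant heifers 2 and 4 lay among them. The fitted log2 fold change was 1.34 (standard error 0.41), a 2.53-fold higher level.

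In station B the level of UGT8 was higher and more uneven, and its fitted change had the opposite sign to that of station A. AI-pregnant heifers 1 to 6 had 3.66, 16.5, 3.65, 22.0, 6.51 and 2.17 CPM, with a mean of 9.08 ± 8.18 CPM (SD, n = 6). Non-pregnant heifers 1 to 6 had 2.54, 12.1, 1.43, 2.64, 2.95 and 4.94 CPM, with a mean of 4.43 ± 3.93 CPM (SD, n = 6). AI-pregnant heifers 2 and 4 and non-pregnant heifer 2 stood far above the others, and the remaining heifers of both outcomes overlapped. The log2 fold change was -1.03 (standard error 0.69, 95% interval -2.53 to 0.47), which did not pass the test (adjusted p of 0.871 in the quasi-likelihood test of edgeR). The exact permutation test (two-sided) gave p = 0.227. The fitted level in non-pregnant heifers was 0.491 times that of AI-pregnant heifers (95% interval 0.174 to 1.39). Only 0.0646% of the 10832 genes had a log2 fold change as low or lower, but UGT8 was also among the more variable genes of the station. The estimate depended on the high heifers, at -0.55 without AI-pregnant heifer 4 and -1.69 without non-pregnant heifer 2, and neither fit called it.

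**Figure D2:**
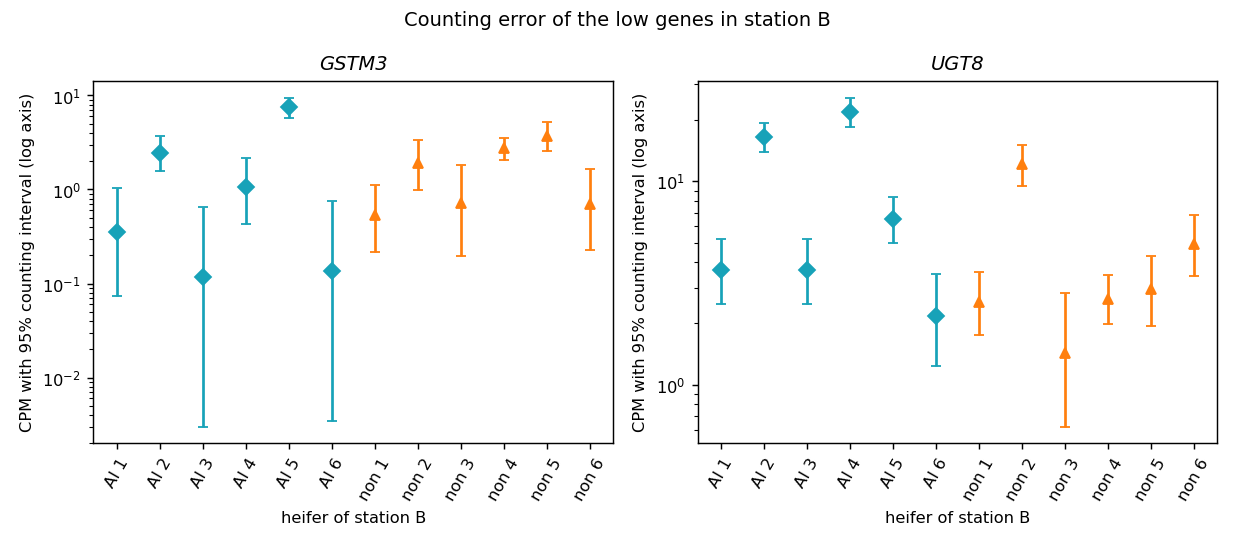
GSTM3 and UGT8 in each heifer of station B, in CPM on a log axis, with exact 95% Poisson intervals of the count (AI, AI-pregnant; non, non-pregnant). AI-pregnant heifer 5 stands at 7.50 CPM of GSTM3, and AI-pregnant heifers 2 and 4 and non-pregnant heifer 2 stand at 12.1 to 22.0 CPM of UGT8, with intervals clear of the remaining heifers of the same gene and outcome.

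None of the 3 genes was called in station B, where 0 of 10832 genes (0%) had an adjusted p under 0.05 in the same test. At an unadjusted p under 0.05 the test gave 51 genes (0.471%), DESeq2 gave 91 and the likelihood ratio test 38, and the 3 enzymes, with unadjusted p of 0.803 (ALDH5A1), 0.921 (GSTM3) and 0.162 (UGT8) from the quasi-likelihood test, were not among the 51. The groups of station B overlapped for all 3 genes, as they did for nearly all others, since 1 gene (0.00923%) was higher without overlap in non-pregnant heifers and 2 (0.0185%) were lower. By the rule of the study, explained in the next paragraph, 6 genes of station B (0.0554%) were called, 5 of them higher (0.0462%), and none was 1 of the 3 enzymes.

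In station A the values that chose the genes were the unadjusted P of the likelihood ratio test of edgeR and of the Wald test of DESeq2, both of which had to be at or under 0.01. These were 0.000150 and 2.61e-05 for ALDH5A1, 0.000247 and 0.00131 for GSTM3 and 0.00749 and 0.00277 for UGT8. That rule called 18 of 12128 genes (0.148%), 8 of them higher in NB-pregnant heifers (0.0660%). Among the genes higher in NB-pregnant heifers, UGT8 was the one just inside the threshold, with 0.00749 as its larger P. ENSBTAG00000013064 was the one just outside, with 0.0111. In the same heifers the quasi-likelihood test called 0 of 12128 genes (0%) at an adjusted p under 0.05. With it, 102 genes (0.841%) had an unadjusted p under 0.05. DESeq2 called 2 genes after adjustment, 0 of them higher in NB-pregnant heifers, so none of the 3 enzymes was among them. The number at an unadjusted p under 0.05 was not stable, with 61 to 370 genes when 1 heifer was left out (370 without AI-pregnant heifer 4 and 258 without NB-pregnant heifer 3) and 692 with a covariate for the first principal component.

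NB-pregnant heifers 1 and 3 lay above every AI-pregnant heifer of station A for all 3 genes, and each of the 5 NB-pregnant heifers did so for at least 1 gene. The genes had been chosen as higher in these same heifers, and no share over all genes was computed for this count, so it is a description only. No gene of the 3 separated the groups of station A without overlap, as 4 genes of the 12128 (0.0330%) did with the higher and 14 (0.115%) with the lower level in NB-pregnant heifers. The difference between the change in station A and the change in station B was not tested, because the heifers of station A had chosen the genes.

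**Figure D3:**
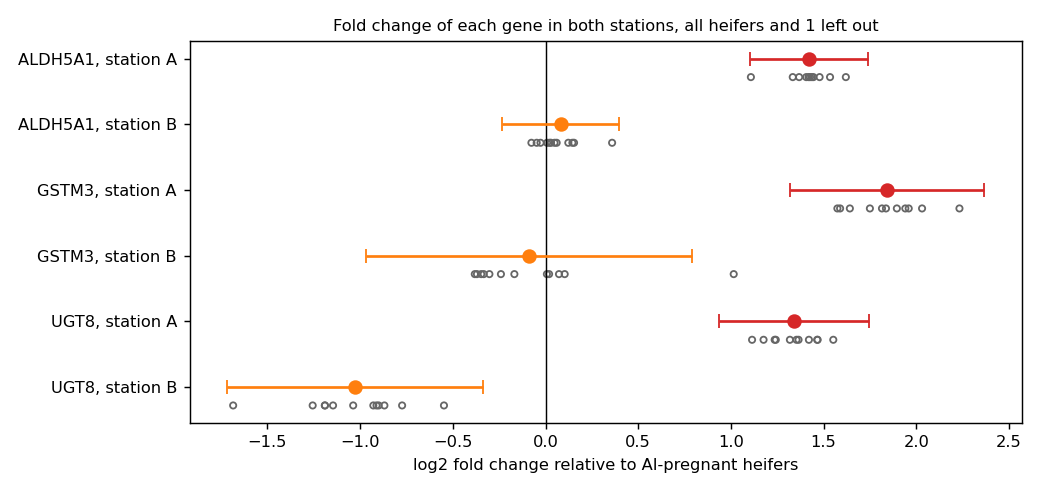
Log2 fold change of each gene relative to AI-pregnant heifers (horizontal axis), NB-pregnant heifers in station A and non-pregnant heifers in station B. Large points with bars are the fit on all heifers ± standard error, and open circles are fits without 1 heifer each. The station A values, on which the genes had been chosen, stay between 1.11 and 2.23, while ALDH5A1 and GSTM3 lie on both sides of 0 in station B and UGT8 stays between -1.69 and -0.55.

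The profile of the libraries moved with ALDH5A1 in station B. Its level was 48.3 to 70.9 CPM in the 3 libraries with more genes above 1 CPM and 23.4 to 44.1 CPM in the other 9, without overlap. That was a common pattern, since 35.0% of the 10832 genes were higher without overlap in those 3 libraries and 33.0% were lower. GSTM3 had 0.118 to 2.74 CPM in the 3 libraries and 0.135 to 7.50 CPM in the 9, and UGT8 had 2.54 to 3.65 CPM and 1.43 to 22.0 CPM, so that both overlapped. The highest levels of GSTM3 and UGT8 therefore came from the 9 libraries with fewer genes above 1 CPM, and that of ALDH5A1 from the 3 others. Within the 9 libraries alone, 5 AI-pregnant and 4 non-pregnant, the log2 fold changes were 0.08 for ALDH5A1, -0.37 for GSTM3 and -0.93 for UGT8, and none was called. Those 9 libraries were set apart after the data had been seen. In the 7 libraries of station B with the larger share of counts in the 100 most abundant genes, the class that had been planned, the log2 fold changes were 0.14, -1.22 and -0.86 in the same order, again without a call.

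The libraries of station A fell into 6 with more and 5 with fewer genes above 1 CPM, and for none of the 3 genes did these classes separate, against 37.4% of the 12128 genes that were higher and 12.1% that were lower without overlap in the 6. Among the 6, AI-pregnant heifers had 14.5 to 23.0 CPM of ALDH5A1 and both NB-pregnant heifers had 22.8 and 49.2 CPM. Among the 5, AI-pregnant heifers had 13.4 and 21.1 CPM and NB-pregnant heifers 38.3 to 68.2 CPM. The NB-pregnant heifers thus lay above the AI-pregnant heifers in the class of 5 and met them in the class of 6. In the class of 6 the log2 fold change of ALDH5A1 was 0.80 instead of 1.42. Each class held few heifers per outcome, and the share of all genes without overlap of the outcomes within a class was not computed. The classes also differed in depth without overlap, with 4826003 to 6105250 counted pairs in the 5 and 6832237 to 20053283 in the 6. Class and depth can thus not be told apart.

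For GSTM3 the order was the other way around. In the class of 6 libraries AI-pregnant heifers had 0.190 to 0.530 CPM and NB-pregnant heifers 1.60 and 1.76 CPM, without overlap, and the log2 fold change was 2.23. In the class of 5, AI-pregnant heifers had 0.776 and 1.15 CPM and NB-pregnant heifers 1.04 to 2.68 CPM. UGT8 had 0.824 to 1.65 CPM in AI-pregnant and 1.17 and 2.94 CPM in NB-pregnant heifers of the class of 6, with a log2 fold change of 0.82. In the class of 5 it had 0.491 and 1.16 CPM against 1.34 to 3.52 CPM, without overlap. The direction was thus the same in both classes for each gene, while the overlap of the groups differed. Since these heifers had chosen the genes and no share over all genes was computed within a class, the separations are a description only.

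**Figure D4:**
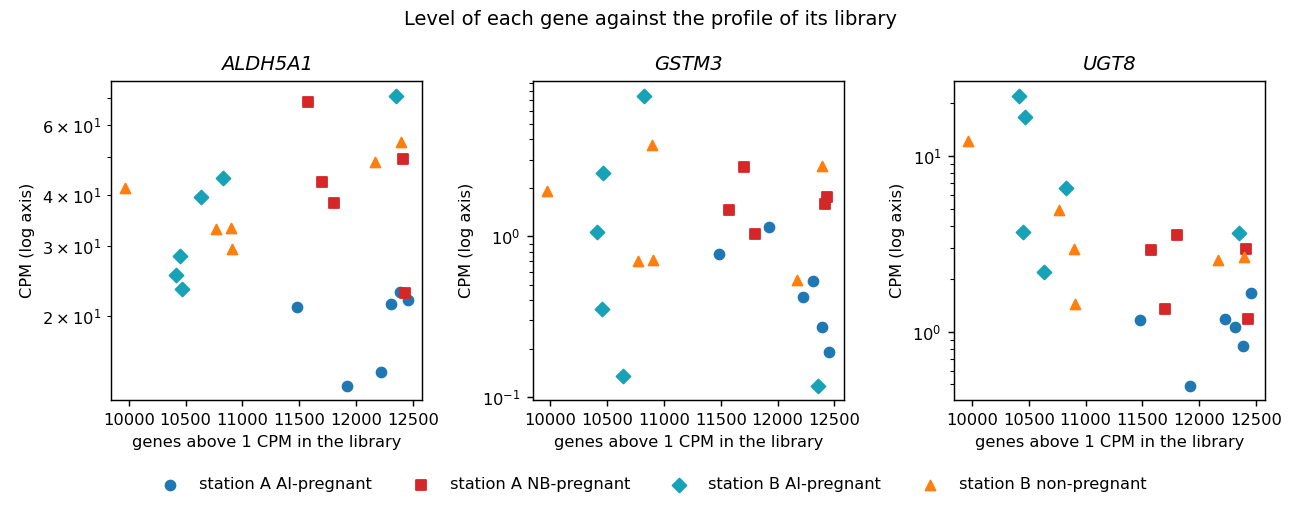
Level of each gene in CPM (vertical axis, log scale) against the number of genes above 1 CPM in the same library (horizontal axis), with symbols for station and outcome. The 3 libraries of station B at 12166 to 12394 genes hold the highest ALDH5A1 levels of their station, and the highest UGT8 levels lie among libraries with 9970 to 10905 genes.

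By the medians of the 4 groups, ALDH5A1 ran from 21.3 CPM in AI-pregnant heifers of station A through 33.9 CPM (AI-pregnant) and 37.4 CPM (non-pregnant) in station B to 43.3 CPM in NB-pregnant heifers of station A. Its lowest group did not overlap with the next, while the other neighbours in that order overlapped. GSTM3 ran in the same order, with medians of 0.476, 0.707, 1.31 and 1.60 CPM, and all neighbours overlapped. UGT8 ran from 1.11 CPM in AI-pregnant heifers of station A through 2.79 CPM in non-pregnant heifers of station B and 2.92 CPM in NB-pregnant heifers to 5.08 CPM in AI-pregnant heifers of station B, again with overlap of all neighbours.

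The AI-pregnant heifers, the outcome found in both stations, thus differed in level. Each of the 6 AI-pregnant heifers of station B was above all 6 of station A for ALDH5A1, by a small gap from 23.0 to 23.4 CPM, and for UGT8, by a gap from 1.65 to 2.17 CPM, but not for GSTM3. Among the 10422 genes retained in both stations, 12.5% were higher in station B in this way and 8.58% were lower. The AI-pregnant heifers of station A had taken part in the choice of the genes, and CPM were scaled only by the total of each library. These levels are thus a description. Between libraries with more genes above 1 CPM alone, 6 of station A and 3 of station B, all 3 genes overlapped, and 0.585% of genes were higher and 1.72% lower in station B without overlap.

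The spread between heifers of the same outcome separated the 3 enzymes. On the log2 CPM scale ALDH5A1 had an SD within groups of 0.46 (station A) and 0.49 (station B), at percentiles 37.0 and 28.6 of the retained genes, whose medians were 0.58 and 0.68. GSTM3 had 0.69 and 1.42, and in station B this was percentile 85.0 of the retained genes. UGT8 had 0.52, also below the median, and 1.14, at percentile 78.6. The biological coefficient of variation of the edgeR fit was 0.389 for ALDH5A1, 0.413 for UGT8 and 0.466 for GSTM3 in station A, near the median of 0.403 over all genes. In station B it was 0.467 for ALDH5A1, 0.817 for UGT8 and 1.02 for GSTM3, with a median of 0.494. ALDH5A1 was thus near the middle of the genes in both stations by this measure, at percentiles 47.1 and 42.9, and the enzymes stood apart from each other mainly in station B.

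The 3 genes were also compared with each other over heifers. In station B, within the 7 libraries with the larger share of counts in the 100 most abundant genes, Pearson's r of log2 CPM was 0.475 for GSTM3 and UGT8 (Spearman's rho 0.571), -0.365 for ALDH5A1 and UGT8 (rho -0.321) and 0.140 for ALDH5A1 and GSTM3 (rho 0.107). Exact permutation tests of r (two-sided) gave p = 0.286, 0.397 and 0.769 in that order, or 0.596, 0.596 and 0.769 after Benjamini-Hochberg adjustment over the 3 pairs, and those of rho gave p = 0.200, 0.498 and 0.840 (adjusted 0.600, 0.746 and 0.840; exact permutation tests). Without the 2 libraries farthest from the median of the first-named gene, r was 0.647, -0.228 and -0.129. No pair of the enzymes was thus shown to vary together. In the 9 libraries with fewer genes above 1 CPM, r was 0.362, -0.296 and 0.210 in the same order (exact permutation p = 0.335, 0.428 and 0.583). On CPM in place of log2 CPM, r in the 7 libraries was 0.041 for GSTM3 and UGT8, -0.505 for ALDH5A1 and UGT8 and 0.445 for ALDH5A1 and GSTM3 (exact permutation p = 0.944, 0.242 and 0.364), so its size depended on the scale. In the 11 heifers of station A, r of log2 CPM was -0.472, 0.569 and -0.290 in the same order, as a description of deviations from the group means. The sign was opposite for every pair, but the 11 libraries pooled both profile classes of station A. The r values of the 2 stations thus come from unlike sets of libraries. Those of station B also used log2 CPM over both outcomes, not deviations from the group means. The r values of the stations are therefore not a like comparison.

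Genes with a pattern like that of each enzyme were ranked by the lower of the values of Pearson's r of log2 CPM over the 11 heifers of station A and the 12 of station B, among 10421 genes. The nearest was ENSBTAG00000017007 for ALDH5A1 (r of 0.73 and 0.72), ENSBTAG00000013784 for GSTM3 (0.675 and 0.694) and ENSBTAG00000001475 for UGT8 (0.622 and 0.539). These genes are given by identifier. The r values were the highest of many and were computed over libraries that share their profile classes and outcomes, so they describe likeness over these heifers and carry no test.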

How the data were processed

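PWBC of 23 heifers were measured by RNA-seq of poly(A) RNA (stranded mRNA libraries, 1 per heifer). Per the labels the genome build was UMD3.1. The authors aligned read pairs, removed duplicates and pairs with several alignments, and deposited for each station the counts of pairs per Ensembl gene, whole numbers without normalization. The strand setting of the counting is not given in the sources used here, and in RefSeq's ARS-UCD2.0 annotation ALDH5A1 overlaps 1 lncRNA and 2 pseudogenes, so its counts could hold their pairs. The deposited FPKM were made by the authors from the counts of retained genes, the total of the retained genes in each library and 1 length per gene.

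CPM were computed on the totals of the full tables. Groups came from the labels for station and pregnancy outcome. Each station was fitted apart with edgeR's quasi-likelihood test (TMM factors, Benjamini-Hochberg adjustment over all retained genes, threshold 0.05), with AI-pregnant heifers as the reference, and CPM were compared by exact permutation (two-sided). The standard error of a fitted log2 fold change was computed as its absolute value over the square root of the F statistic. The 95% interval was built from that error with the t distribution, so both are approximate. Log2 CPM used a prior count of 2. Totals of 4826003 to 20434401 set the precision, and 95% Poisson intervals of single counts cover counting error only. Library classes were taken from the share of counts in the 100 most abundant genes and, added after the data had been seen, from the number of genes above 1 CPM. In station B the share gave 7 libraries with the larger share and 5 others, which did not set apart the 3 libraries with more genes.

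The members and lists were chosen with earlier results of these data known. Named genes were the 3 members and, since few identifiers could be paired with a name, the 1 gene most like each. Beside these, 1 gene just outside the threshold that chose the members is given, taken among genes higher in NB-pregnant heifers. The 2 markers whose identifiers the study pairs with names are given as well. No Ensembl identifier is given for the 37063 RefSeq genes used for names, so the pathway lists (97 symbols) and all but 2 of the markers of cell types (35 symbols) could not be matched and were not analysed. Alternatives were other normalization factors, DESeq2, the likelihood ratio test, other filters, each heifer left out, the larger library class, the first principal component as a covariate and the log2 scale for permutation. Under the filter of more than 1 CPM in every library, the 3 genes were kept whatever their level. GSTM3 would have failed that filter in both stations and UGT8 in station A. The supplement gave the primer sequences, and its values were not used. Fits were run in edgeR 4.0.16, with limma 3.58.1, and in DESeq2 1.42.0 (R 4.3.3). Levels, permutation tests and plots used scipy 1.17.1, numpy 2.4.6, pandas 2.3.3 and matplotlib 3.10.9 (Python 3.11.15).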

Additional observations from a re-analysis of the deposited data

Results flagged for a closer look

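Each of the 3 genes was examined in the 4 groups for a heifer that stood apart by Dixon's criterion (the gap to the nearest heifer over the range of the group), and 2 of these 12 groups held one, where chance marks about 1 group in 20. GSTM3 was 7.50 CPM in AI-pregnant heifer 5 of station B, with the next heifer at 2.47 CPM and a gap of 0.682 of the range against a critical value of 0.625. UGT8 was 12.1 CPM in non-pregnant heifer 2 of station B, with the next at 4.94 CPM and a gap of 0.672 of the range. Dixon's criterion assumes normal values, and CPM were skewed. On log2 CPM, a scale added after the data had been seen, the gaps were 0.343 and 0.448 of the range, and none of the 12 groups held a heifer that stood apart. Both libraries belong to the 9 with fewer genes above 1 CPM, and the part of that profile in these levels was not tested.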

How the results depend on the processing

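In station B, UGT8 stayed lower in non-pregnant heifers and uncalled in all 21 alternatives, and ALDH5A1 and GSTM3 stayed uncalled, in 17 and 16 of their 21 with the same sign. The log2 fold change of ALDH5A1 was -0.027 with a covariate for the first principal component and ran from -0.076 to 0.36 with 1 heifer left out, the latter without AI-pregnant heifer 3. It was -0.027, -0.048 and -0.076 without AI-pregnant heifer 2, AI-pregnant heifer 4 and non-pregnant heifer 4. GSTM3 was -1.22 in the 7 libraries with the larger share of counts in the 100 most abundant genes. With 1 heifer left out it ran from -0.38 to 1.01, the latter without AI-pregnant heifer 5, and was 0.0072 without AI-pregnant heifer 2 and 0.10, 0.019 and 0.072 without non-pregnant heifers 1, 3 and 6. UGT8 ran from -1.69 to -0.55 in such fits. On log2 CPM the permutation difference of GSTM3 turned to 0.49, higher in non-pregnant heifers (exact permutation p = 0.558), while on CPM it was -0.219. The cause was not tested. The number of genes called in station B was 0 to 0 with 1 heifer left out, 1 in the 9 libraries with fewer genes above 1 CPM (chosen after seeing the data) and 6 by the rule of the study. Without AI-pregnant heifer 3, 2315 genes had an unadjusted p under 0.05. In station A, ALDH5A1 was 0.80 in the class of 6 libraries, which both class rules gave, and with 1 heifer left out the ranges were 1.11 to 1.62 for ALDH5A1, 1.57 to 2.23 for GSTM3 and 1.11 to 1.55 for UGT8. Without normalization factors the log2 fold changes of all genes in station A had a median of -0.12 against 0.01. No paired analysis was possible because the labels give the heifers of the groups no shared numbers. Depth limits GSTM3 most, with 1 to 7 pairs in many libraries.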
